A study of Mus musculus with 2 samples.

Results

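The 10 circadian clock genes Arntl, Clock, Per1, Per2, Per3, Cry1, Cry2, Nr1d1, Nr1d2 and Dbp were read in brain RNA of mice with and without interleukin-18, an inflammatory cytokine. They were picked by name, from probes whose transcript accession belongs to 1 of these symbols, and all 10 were measured, among 15734 named genes that were well above background on both arrays. The groups were Il18-/- and Il18+/+ mice, both male, C57Bl/6 N and 12 weeks old. Each group was 1 RNA pool from 7 mice on 1 one-colour Agilent array. The sample labels say hippocampus, but prefrontal cortex is the tissue in the extraction protocol and in 1 sentence of the design text. All 12 hippocampal marker genes and all 10 neocortical marker genes looked for were measured on both arrays. That cannot tell which tissue was taken, since 15734 of the 20656 genes with a named probe were measured. So were all 8 choroid plexus markers and 7 of 8 liver markers. The time of day at which tissue was taken is not given in the sources used here.

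The circadian clock is a loop of transcription factors that runs in nearly every mammalian cell. ARNTL (also called BMAL1) and CLOCK bind E-box sequences as a pair and switch on the Per, Cry, Nr1d and Dbp genes. PER and CRY proteins return to the nucleus and block that pair, while the nuclear receptors NR1D1 and NR1D2 (REV-ERB alpha and beta) repress Arntl through ROR elements. DBP is an output factor that acts through D-boxes. Most of these transcripts rise and fall over the day, Arntl roughly opposite to the Per genes, and in the hippocampus the clock has been linked to the daily variation of memory.

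The DNA elements through which the loop acts are shown first, since the members differ in which of them lie next to their start sites. RefSeq promoter windows of GRCm38.p6, which run from 250 bases before to 50 bases after a start, were given for 9 of the 10 genes, in 13 windows. The search covered both strands for the E-box CACGTG, its variant CACGTT (E'-box), the D-box TTATGTAA or TTACGTAA, the core TAGGTCA or TGGGTCA of the ROR element, and the cyclic AMP element TGACGTCA, and no matches overlapped. Of 32851 windows of the same length, 7.15% held the E-box, 4.68% the E'-box, 1.06% the D-box, 6.45% the ROR core and 1.79% the cyclic AMP element. In the stretches below, written 5′ to 3′ along the gene, capitals mark these motifs.
Per3, chr4:151044786-151044900, minus strand: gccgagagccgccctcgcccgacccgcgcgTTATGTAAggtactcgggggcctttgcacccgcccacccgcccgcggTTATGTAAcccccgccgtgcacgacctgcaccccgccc
Per1, chr11:69098753-69098818, plus strand: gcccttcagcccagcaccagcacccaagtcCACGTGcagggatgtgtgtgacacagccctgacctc
Cry1, chr10:85185079-85185163, minus strand: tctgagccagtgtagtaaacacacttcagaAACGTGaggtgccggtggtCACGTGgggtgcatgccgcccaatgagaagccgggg
Nr1d1, chr11:98775378-98775435, minus strand: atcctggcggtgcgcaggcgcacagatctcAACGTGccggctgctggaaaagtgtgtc
Arntl, chr7:113207530-113207559, plus strand: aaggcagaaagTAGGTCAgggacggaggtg
Per3 held 2 D-boxes, 205 and 158 bases before its start. Per1 held 1 E-box, 166 bases before its first listed start, and Cry1 held 1 E-box and 1 E'-box, 60 and 79 bases before its start. Nr1d1 and Cry2 each held 1 E'-box, 28 and 166 bases before the start. The ROR core of Arntl began at base 31 of the transcript of its second listed start. Clock, Nr1d2 and Dbp held none of these letters within the windows, and sites farther from the start were not searched. Per2 was the gene without a window and was not searched.

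A level is a log2 signal after subtraction of its own array's 75th percentile, and a difference is the Il18-/- level minus the Il18+/+ level. Neither genotype was replicated, so differences could not be tested and describe 2 arrays, whose number limits the precision. As a check of the labels, the targeted gene Il18 had a level of -0.12 in Il18-/- against 1.37 in Il18+/+, from a probe whose position relative to the deleted sequence is not known here. Of the 10 clock genes, 9 rest on 1 probe with 1 spot, and Dbp on 2 probes with 1 spot each. The scanner software gives an error for each spot, from which the error of a difference came to between 0.20 and 0.24 for these genes. The spot error was nearly a fixed share of intensity. That share ran from 10% for Cry2 on both arrays to 12.0% for Cry1 in Il18+/+. A second yardstick is the spread between repeated spots of a probe, taken over the 50 repeated probes nearest in level to a gene, with a median between 0.05 and 0.19 depending on the gene. Both cover technical error within these arrays only, and not the spread between mice. In pooled tissue, fewer cells of a type and less RNA per cell cannot be told apart.

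The Per genes were lower and the Cry genes higher in Il18-/-, except that Cry2 turned lower when the arrays were scaled by their spike-in controls. Per2 and Cry2 stayed inside their scanner errors, as did the members outside these 2 families. Against the median of genes near its level, Cry2 differed by 0.06. By that measure Arntl (0.08), Clock (-0.11), Nr1d1 (-0.08), Nr1d2 (-0.12) and Dbp (-0.07) differed by more. Of the 10 genes, 6 were lower in Il18-/-, against 47.4% of all measured genes. Their median difference was -0.11, against 0.01 over all measured genes. At a size of 1.2-fold, 1 member was lower (Per3), where 12.4% of all genes were, and 1 was higher (Cry1), where 7.34% were. In all, 2 of 10 members reached 1.2-fold, near the background of 19.7%. With quantile normalization, loess or the authors' deposited values 3 members reached it, as Per1 joined Per3 and Cry1. With normexp background correction Per1 alone reached 1.2-fold, and with no background correction Cry1 alone. With spike-in scaling 7 members reached 1.2-fold and 9 were lower, and with probes below the lower quartile of level left out, which removes Per3 and Cry1, none reached it. None of the 10 in the scaling used here reached 1.5-fold, a size reached by 4.26% of all genes. Per1, Per3 and Cry1 were the 3 members whose difference exceeded the scanner error, and none exceeded 2 such errors. That error is smaller than 1.2-fold, a size that 19.7% of all genes reached. The share of all genes beyond their scanner error was not computed, so this count does not set the 3 apart.

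**Figure D1:**
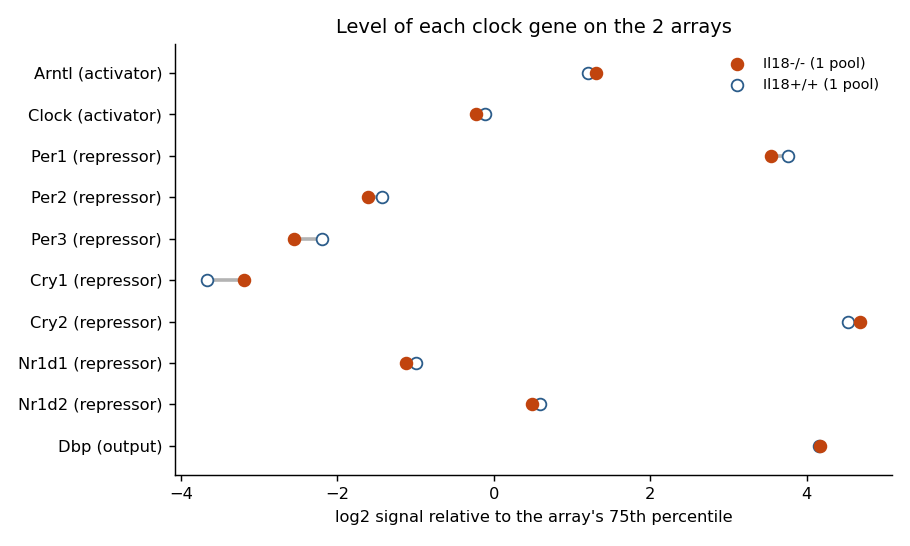
Level of each clock gene, as log2 signal relative to the array's 75th percentile, in the Il18-/- pool (filled) and the Il18+/+ pool (open), 1 array each. The points of Cry1 and Per3 lie farthest apart, with Cry1 higher and Per3 lower in Il18-/-, and those of Dbp coincide; levels of different genes come from different probes and are not comparable.

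The 2 activators differed by little and in opposite directions. Arntl, which encodes the E-box-binding partner of CLOCK, had an intensity of 1758 in Il18-/- and 1596 in Il18+/+, or levels of 1.31 and 1.2. It was 1.08-fold higher, by 0.11 with a scanner error of 0.20, and turned lower under spike-in scaling. Clock, which encodes the other protein of the pair, had an intensity of 605.2 in Il18-/- and 641.0 in Il18+/+, or levels of -0.23 and -0.12, and was 1.08-fold lower. Both differences lay inside their scanner errors.

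The 3 Period genes, which encode the PER repressors, were all lower in Il18-/-, with a mean difference of -0.25 ± 0.10 (SD over the 3 genes, which is not a replicate error). Per3 stood lowest of the 10 members. Its intensity was 120.6 in Il18-/- and 151.6 in Il18+/+, or levels of -2.56 and -2.20, a difference of -0.36 and 1.28-fold lower. The scanner error was 0.21 and the median spread of repeated spots near this level was 0.13. Of the 1000 genes nearest in level to Per3, 17.1% differed as far from 0, and the central 90% of them ran from -0.48 to 0.37, so Per3 lay within the range of genes equally dim.

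Per1, the Period gene that is also switched on by neuronal activity and glucocorticoids, had an intensity of 8267 in Il18-/- and 9440.2 in Il18+/+. These were levels of 3.54 and 3.76, a difference of -0.22 and 1.17-fold lower, with a scanner error of 0.20. Per1 is bright, and bright genes scattered less. The central 90% of the 1000 genes nearest in level ran from -0.13 to 0.25. Per1 was the only 1 of the 10 members outside the range for its own level. A central 90% leaves 1 gene in 10 outside by definition, so this count equals the background share. Of those genes 9.90% differed as far from 0, and the repeated spots near this level had a median spread of 0.05. Per2, which encodes the core PER protein of the loop, had an intensity of 233.6 in Il18-/- and 258.2 in Il18+/+, or levels of -1.60 and -1.43. It was 1.13-fold lower, by a difference of -0.18 that lay inside its scanner error of 0.21.

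**Figure D2:**
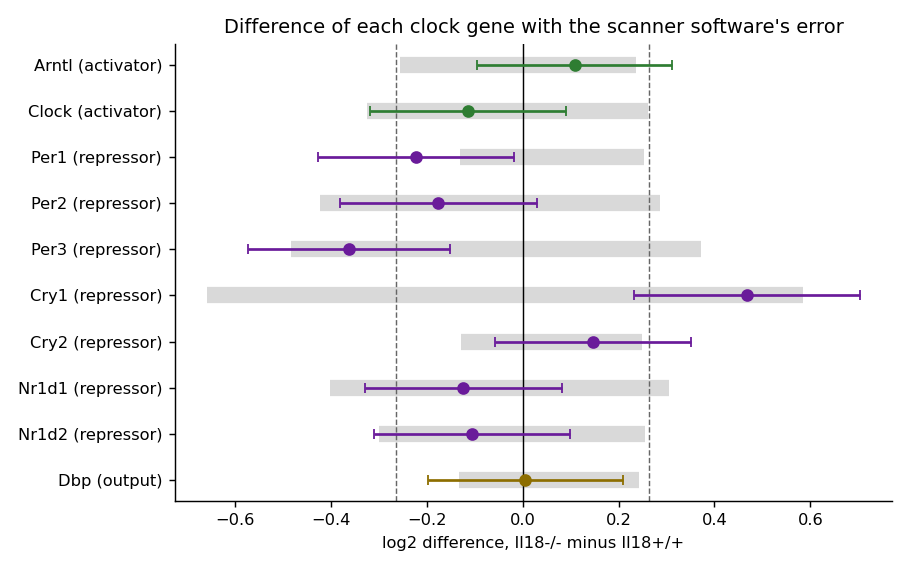
Log2 difference of each clock gene, Il18-/- minus Il18+/+, with the error given by the scanner software as bars, the central 90% of the 1000 genes nearest in level as grey bands, and 1.2-fold as dashed lines. The points of all 3 Per genes lie left of 0 and those of both Cry genes right of it (Cry2 turned lower under spike-in scaling). Per1 at -0.22 is the 1 point of 10 outside its grey band, which leaves 1 gene in 10 outside by definition.

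The Cryptochrome genes, which encode the CRY partners of PER, went the other way from the Per genes, apart from Cry2 under spike-in scaling. Cry1 had an intensity of 77.6 in Il18-/- and 54.9 in Il18+/+, or levels of -3.19 and -3.66. It was 1.38-fold higher, the widest difference among the members at 0.47, with a scanner error of 0.24. Its spot was also the dimmest of the set. Its raw median signals were 117 and 91 over local backgrounds of 44 and 41, in Il18-/- and Il18+/+, and repeated spots near this level had a median spread of 0.19 and a 95th percentile of 0.40. Of the 1000 genes nearest in level, 18.8% differed as far from 0. Of the 18 spots around the Cry1 spot 1 was higher in Il18-/- by 4.04, while their median was 0.10. Cry2 was bright, with an intensity of 18169 in Il18-/- and 16061 in Il18+/+, or levels of 4.68 and 4.53. It was 1.11-fold higher, by 0.15. Genes near that level had a median difference of 0.08, so Cry2 exceeded them by 0.06.

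Both genes of the REV-ERB receptors, the repressors of Arntl, were slightly lower in Il18-/-. Nr1d1 had an intensity of 327.1 in Il18-/- and 348.8 in Il18+/+, or levels of -1.12 and -0.99, and was 1.09-fold lower. The 18 spots around it had a median difference of -0.15, close to its own difference of -0.12, and it read 0.02 once that local median was subtracted. Nr1d1 overlaps Thra, the thyroid hormone receptor alpha gene, on the opposite strand, and Thra differed by 0.01 over 2 probes. Nr1d2 had an intensity of 993.8 in Il18-/- and 1047 in Il18+/+, or levels of 0.49 and 0.59, and was 1.08-fold lower. Neither difference exceeded its scanner error.

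The output gene Dbp, whose transcript is among the most strongly rhythmic in many tissues, was even between the arrays. Its first probe had an intensity of 14271 in Il18-/- and 14224 in Il18+/+, and its second 11363 in Il18-/- and 10831 in Il18+/+. The probes differed by -0.03 and 0.04, with a mean of 0.01, and 97.0% of the 1000 genes nearest in level differed as far from 0.

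Activator-arm and repressor-arm genes were set against each other through their differences. The 2 activators had a mean difference of 0.00 ± 0.16 and the 7 repressors a mean of -0.05 ± 0.28 (SD over genes). Activator arm minus repressor arm was thus 0.05, smaller than the spread within either arm. Of the 7 repressors, 5 were lower and 2 higher in Il18-/-. By family, the gap of the activators over the repressors was 0.25 for the 3 Per genes, 0.11 for the 2 Nr1d genes and -0.31 for the 2 Cry genes. The Cry value rests mostly on Cry1, whose spot was the dimmest of the set. The 2 Cry genes lay 0.32 apart, and Cry2 on its own was at 0.15. The gap between the whole arms also moved with single genes. With 1 gene left out at a time, a step added after the values were seen, it ran from -0.060 without Arntl, where its sign turned, to 0.16 without Clock, and it was 0.14 without Cry1 and 0.00 without Per3.

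**Figure D3:**
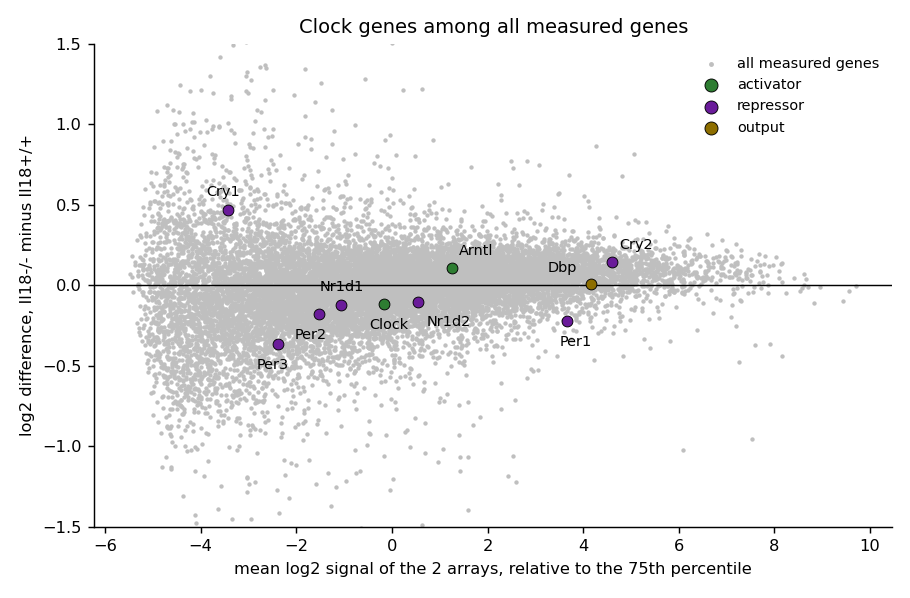
Log2 difference, Il18-/- minus Il18+/+, against the mean log2 signal of the 2 arrays for all measured genes (grey) and the clock genes (coloured by role); 71 genes beyond 1.5 on the vertical axis are not shown. The scatter widens towards dim genes on the left, where Cry1 and Per3 lie inside it, while Per1 lies at the lower edge of the narrow scatter of bright genes.

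Besides the 10 genes, 11 further transcription factors of the clock were all measured. Of these, 8 were lower and 3 higher in Il18-/-, with a median of -0.21, and 4 were at least 1.2-fold lower (Arntl2, Rora, Rorb and Bhlhe41), where 47.4% of all genes were lower and 12.4% were 1.2-fold lower. Arntl2 (levels of -4.62 in Il18-/- and -4.35 in Il18+/+) and Bhlhe41 (-3.55 and -3.25) were dim, where genes scattered more. For the dim Cry1, the central 90% of the 1000 genes nearest in level ran from -0.66 to 0.58. RORA and RORB switch on Arntl through the element that the REV-ERB receptors use to repress it. Rora had levels of -0.18 in Il18-/- and 0.10 in Il18+/+, a difference of -0.28. Rorb, also a marker of cortical layer IV, differed by -0.27 as the mean of probes at -0.33 and -0.22. The DEC repressors, which compete for E-boxes, were both lower, with Bhlhe40 at -0.26 and Bhlhe41 at -0.31, although the probes of Bhlhe41 read -0.50 and -0.12.

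Ciart, a repressor of the CLOCK and ARNTL pair, had levels of -1.89 in Il18-/- and -1.68 in Il18+/+ and was 1.16-fold lower. Its window is shown because it held 3 E-boxes, in capitals, more than any other clock gene searched.
Ciart, chr3:95882252-95882359, minus strand: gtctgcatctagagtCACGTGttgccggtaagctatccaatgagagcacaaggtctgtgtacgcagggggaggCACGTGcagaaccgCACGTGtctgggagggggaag
Tef also held an E-box in each of its 2 windows, 127 and 138 bases before the start. The carriers of an E-box did not share a direction, as Per1, Ciart and Bhlhe41 were lower while Cry1 and Tef were higher in Il18-/-, Tef turning lower under spike-in scaling. The relatives of Dbp that read D-boxes also differed among themselves. Tef had levels of 6.63 in Il18-/- and 6.45 in Il18+/+ and differed by 0.18, Hlf had levels of 2.73 in Il18-/- and 2.93 in Il18+/+ and differed by -0.20, and the opposing repressor gene Nfil3 differed by -0.08. Npas2, a stand-in for Clock in the forebrain, differed by 0.12 and Arntl2 by -0.27, both at dim levels.

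The list of genes for the turnover of clock proteins, which also held Timeless, was nearly balanced. Of the 12 genes 6 were lower, against 47.4% of all genes, and 6 higher, with a median of 0.02. Timeless was the 1 of 12 at 1.2-fold, a size that 19.7% of all genes reached, with a difference of 0.34. Its dim probe, with levels of -4.07 in Il18-/- and -4.56 in Il18+/+, read 0.49. Its brighter probe read 0.19, short of 1.2-fold. The casein kinase 1 genes, whose products mark PER for breakdown, differed by -0.07 (Csnk1d), -0.03 (Csnk1e) and 0.04 (Csnk1a1). The 2 probes of each disagreed in sign, at -0.40 and 0.26 for Csnk1d, -0.13 and 0.07 for Csnk1e, and -0.13 and 0.22 for Csnk1a1. Among ubiquitin ligase genes, Fbxl21, which acts on CRY, differed by -0.10 with probes at -0.24 and 0.04. Btrc and Fbxw11, which act on PER, differed by 0.10 and 0.15. Usp2, a rhythmic deubiquitinase gene, differed by 0.21. The kinase genes Gsk3b, Prkaa1 and Prkaa2 differed by -0.10, -0.01 and -0.14, where the probes of Gsk3b ran from -0.41 to 0.12.

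The list of clock outputs found in many tissues shared Tef, Hlf and Ciart with the clock factors above and Usp2 with the turnover list. Among these outputs 10 of 14 were lower, against 47.4% of all genes, with a median of -0.15. Of the 14, 2 were at least 1.2-fold lower, close to the 12.4% of all genes. These were Gpcpd1, at -0.35, and Tsc22d3, a glucocorticoid-induced gene that also counts in the glucocorticoid list below, at -0.32. Since Per1 also answers to hormones, activity and temperature, lists for those inputs were read. Their counts of lower genes stand beside the same 47.4%. Glucocorticoid-driven genes had 9 of 12 lower and a median of -0.08, with Hif3a at -0.78, Zbtb16 at 0.36 and Plin4 at -0.33. Activity-driven genes had 6 of 12 lower and a median of 0.00, with Fosb at -0.56, Dusp1 at 0.54 and Btg2 at 0.53. Temperature-linked genes had 5 of 8 measured members lower and a median of -0.08, with the heat shock gene Hspa1a at -0.43 and the chaperone gene Hspa5 at -0.33. Genes of the CREB pathway, which carries activity to the Per genes, had 4 of 10 lower and a median of 0.03, with Sik1 at -0.40 and Adcyap1, the gene of the peptide PACAP, at 0.35. The median of no input list reached 1.2-fold in this scaling. Per1 itself (-0.22) and the medians of the clock genes (-0.11) and other clock factors (-0.21) did not reach it either. Whether these inputs played a part was not tested.

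**Figure D4:**
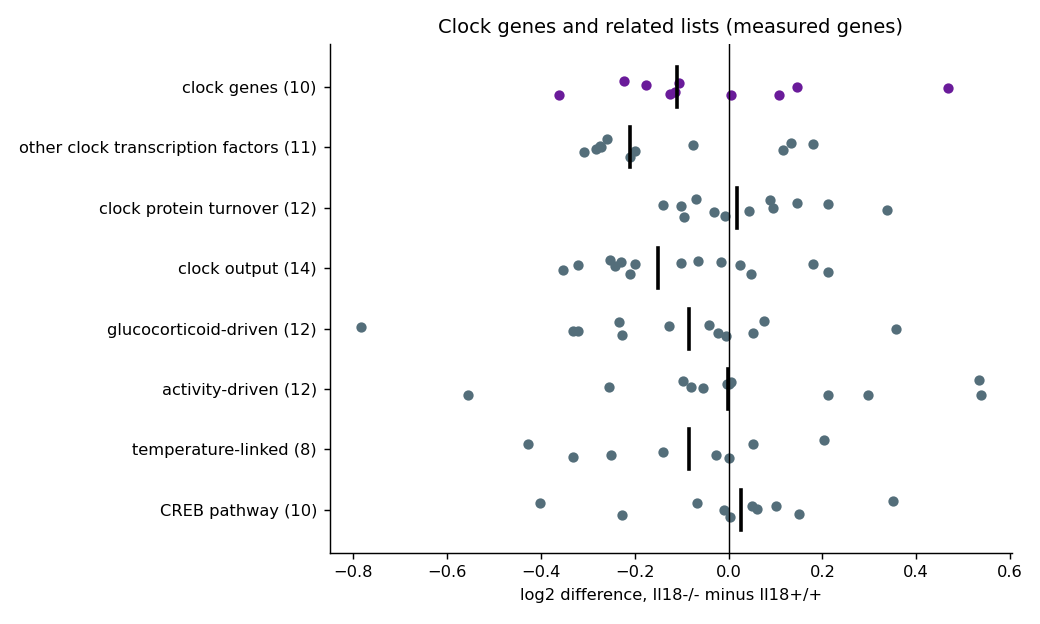
Log2 difference, Il18-/- minus Il18+/+, of each measured gene in the clock set and 7 related lists, with the number of genes in brackets and black bars at the medians; vertical scatter within a row has no meaning and some genes stand in more than 1 list. The other clock transcription factors have the lowest median at -0.21, and the activity-driven list spreads to both sides of a median of 0.00.

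The 2 pools differed in markers of other tissues, and their part in the clock differences was not tested. All 8 choroid plexus markers were at least 1.5-fold lower, as were 2.57% of all genes, with a summed relative signal of 190.7 in Il18-/- and 377.9 in Il18+/+. All 5 measured medial habenula markers and 5 of 7 measured liver markers were at least 1.5-fold higher, as were 1.68% of all genes, while Ttr and Cyp3a11 of the liver list were lower, Cyp3a11 turning higher with no filter on dim probes. All 6 oligodendrocyte markers were lower, against 47.4% of all genes, with a median of -0.26 and a summed relative signal of 167.0 in Il18-/- and 223.2 in Il18+/+. Of these Mbp had probes at -0.65, -0.35 and 0.18, and was higher when its brightest probe stood for it. The median was 0.18 for the 12 hippocampal markers, -0.16 for the 10 neocortical markers, -0.02 for 5 neuronal markers, 0.08 for 6 astrocyte markers, -0.02 for 5 microglial markers and 0.01 for 5 endothelial markers. Of 11 markers of the suprachiasmatic nucleus, the seat of the master clock, and of the hypothalamus, 9 were measured with a median of 0.01, and Nms and Six6 were not well above background on either array.

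The direction of most members held across 13 other ways of processing the arrays. Per1, Per2, Clock and Nr1d2 were lower under all 13, and Per3 was lower and Cry1 higher under all 12 that measured them. Several of these ways could not move members with 1 spot against each other. For a member with 1 probe and 1 spot, choices of brightest probe, probe median, dim probes or outlier spots returned the reported value. The lower-quartile filter returned that value or removed the gene. Scaling by the spot median, the spike-in controls or the deposited values shifted all members alike, so it could turn only differences smaller than the shift. Arntl and Cry2 were higher under 12 and lower under spike-in scaling, which lowers every difference by 0.30 and moved the median of all genes to -0.29; list medians between 0 and that size turn negative with it. Relative to the median of all genes, Arntl and Cry2 were higher under all 13. Nr1d1 was lower under 12 and not under the subtraction of surrounding spots, and Dbp kept the sign of its difference under 8. The sizes moved too. Cry1 read 0.17 with spike-in scaling, 0.24 with normexp background correction and 0.58 with loess, and Per3 read -0.66 with spike-in scaling and -0.19 with normexp.

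**Figure D5:**
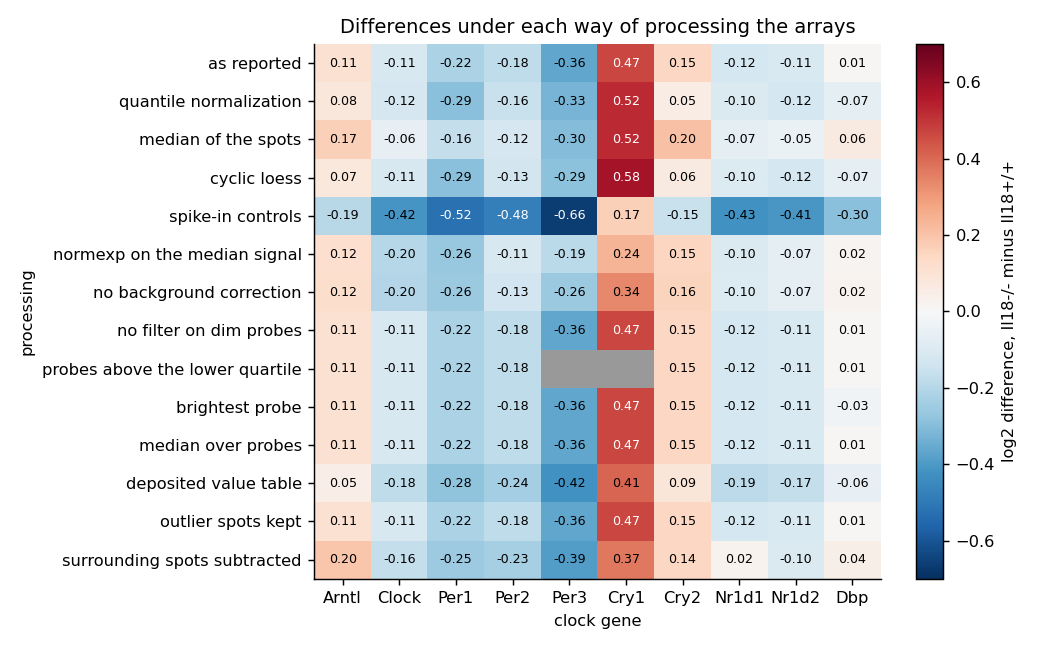
Log2 difference, Il18-/- minus Il18+/+, of each clock gene (columns) under the processing reported here and 13 alternatives (rows), blue for lower and red for higher in Il18-/-; grey cells were not measured. The Per columns are blue in every measured cell and Cry1 is red in every measured cell, while the spike-in row is shifted towards blue throughout. Rows on probe choice or outlier spots repeat the reported value for members with 1 spot.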

How the data were processed

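The authors extracted intensity values with Agilent Feature Extraction (version 10.10.1.1 in the submitters' processing notes). Background and spatial trend were removed inside each array by that software, with no scaling across arrays, per the file headers. The authors' deposited value table equals that intensity multiplied by 1.92 for Il18-/- and by 2.05 for Il18+/+, and its columns have medians of 139.5 and 151.5. It is linear and uncentred, and what set the constants stays unknown. Both arrays lay on 1 slide.

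Control spots and outlier-flagged spots (177 in Il18-/-, 124 in Il18+/+) were left out. Log2 processed intensity was lowered by the 75th percentile of its array (709.9 in Il18-/-, 694.8 in Il18+/+), spots were averaged per probe, and probes well above background on both arrays were averaged per gene. Accessions without versions matched RefSeq genes of GRCm38.p6 for 27229 of 55681 probes, while 28452 stayed unnamed. The design refers to build mm9.

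The members, lists and thresholds were chosen with earlier results of these data known. Named were the 10 members, Il18, Thra, the 2 lists of clock factors and turnover genes, and up to 3 genes at 1.2-fold from each related list; no gene was named by likeness of pattern, since 2 arrays give 1 difference per gene. Of those 2 lists, 2 genes enter the counts and medians but are not reported here. Steps were tested on simulated data. Normexp and loess used limma 3.58.1 in R 4.3.3, and all else Python 3.11.15 with pandas 2.3.3, numpy 2.4.6, scipy 1.17.1 and matplotlib 3.10.9.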

Additional observations from a re-analysis of the deposited data

How the results depend on the processing

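No paired analysis was possible because each genotype had 1 array, and no replicate could be left out. A value counted as moved when it changed by more than 0.0742, the median spread of repeated spots, and a count when it changed by over 1.5 times. The median of the clock genes (-0.11) moved under 1 of 13 alternatives, to -0.41 with spike-in scaling. The gap between the arms (0.05) moved under none, but the cutoff is larger than the gap itself. It ran from 0.0065 with no background correction and 0.0085 with normexp to 0.093 with probes below the lower quartile left out. A shift common to all genes cancels in the gap, and choices of probe could not change arm genes with 1 probe. With 1 gene left out the gap moved to -0.060 (Arntl), 0.16 (Clock) and 0.14 (Cry1). The count of members at 1.2-fold or more (2) was 7 with spike-in scaling, 1 with normexp background correction and 1 with no background correction. It was 0 when probes below the lower quartile of level were left out, which removes Per3 and Cry1. With quantile normalization, loess and the deposited values the count was 3, which did not count as moved. Of 128 values of single members, 104 moved by less than 0.0742, 24 by more, and no member at 1.2-fold turned its direction. Many of the 104 could not move, since choices of probe or outlier spots do not act on a member with 1 spot. Subtraction of surrounding spots and the omission of single genes were chosen after seeing the data. Normexp and uncorrected values used the median spot signal. Cry1 and Per3 had the lowest levels of the 10, nearest to background.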
